A study of Mus musculus with 12 samples.

Results

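The genes described here encode the subunits of the mitochondrial respiratory chain and of ATP synthase that are made from nuclear DNA. They were taken from the table of 33864 loci by symbol: Nduf genes of the a, b, c, s and v series, Sdha to Sdhd, Uqcr genes, Cox genes numbered 4 to 8 with a letter a to c, and Atp5 genes. Of 83 symbols that matched, 2 pseudogene symbols were left out, and 81 genes remained: 37 of complex I, 4 of complex II, 8 of complex III, 15 of complex IV and 17 of complex V. The complex was read from the symbol, although Ndufa4 is now regarded as a complex IV subunit, Cox7a2l acts in joining complexes into supercomplexes, and Atp5s and Atp5sl are related factors that are not core parts of ATP synthase. A symbol found at several loci (Ndufa7, Ndufc2 and Uqcrc1 among them) was read from the locus with the highest mean value.

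The 12 libraries were made from subcortical white matter, each from a different mouse, with 3 mice in each of 4 groups. In the dnEGFR line, mutants of genotype Sox10-tTA;TRE-dnEGFR and littermate controls of genotype TRE-dnEGFR were given doxycycline from P21 to P35 and were sampled at age P35. In the ErbB2V664E line, mutants of genotype Sox10-tTA;TRE-ErbB2V664E and littermate controls of genotype TRE-ErbB2V664E were given doxycycline from P21 to P30 and were sampled at age P30. All 12 mice therefore carried a responder transgene and received doxycycline. Sox10 drives the transactivator in cells of the oligodendrocyte lineage, while the tissue was taken whole. dnEGFR is a dominant-negative epidermal growth factor receptor, and ErbB2V664E is an activated form of the receptor ErbB2. The labels do not say in which direction doxycycline switched the transgenes, and no group carried the transactivator alone. The series title gives the question as the effect of activating or inhibiting ErbB receptors in oligodendroglia.

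Complex I (NADH dehydrogenase) and complex II (succinate dehydrogenase) pass electrons to ubiquinone, complex III (cytochrome bc1) passes them on to cytochrome c, and complex IV (cytochrome c oxidase) passes them to oxygen. Complexes I, III and IV pump protons across the inner mitochondrial membrane, and complex V (ATP synthase) uses the proton gradient to make ATP. All but complex II also contain subunits encoded in mitochondrial DNA, so these complexes are assembled from the products of both genomes. In white matter, axons and astrocytes rely on this pathway for ATP, and mature oligodendrocytes are known to draw much of their energy from glycolysis and to pass lactate to axons.

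Genes of this kind are known targets of nuclear respiratory factor 1 (NRF1), of ETS factors including GABP (NRF-2), and of YY1. Promoter windows of 300 bases (250 before to 50 after the start site) from RefSeq, build GRCm38.p6, were found by symbol for 66 of the 81 genes. The NRF1 letters (GCGCA, then any base, then GCGC), searched on both strands, were present for 17 of these 66 genes (25.8%). Of all 27025 genes with a window, 5.19% had them. That background was not limited to genes expressed in this tissue, so it is unlike the subunit genes, nearly all of which were expressed. The ETS letters CCGGAAG were found for 16 subunit genes (24.2%, against 9.93% of all genes with a window). The YY1 letters AAGATGGCG were found for 7 (10.6%, against 1.64%), and the CCAAT box for 29 (43.9%, against 41.1%), each on either strand. A match describes letters only and is not a bound site. The 6 stretches below, each of 50 bases in the direction of the gene and upstream of its start site, show the NRF1 letters in capitals. For Ndufa8 the letters stand on the opposite strand, so its capitals are their reverse complement. Atp5k, Atp5h and Ndufa8 were lower in the ErbB2V664E line than in the dnEGFR line, and Cox6a1, Sdha and Sdhd were not, in the comparison of the control groups described further on. They are shown because the same letters stood before genes of both kinds.
Atp5k, chr5:108434420-108434469, minus strand: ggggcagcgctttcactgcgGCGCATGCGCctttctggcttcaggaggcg
Atp5h, chr11:115420031-115420080, minus strand: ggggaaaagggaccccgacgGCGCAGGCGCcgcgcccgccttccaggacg
Ndufa8, chr2:36049339-36049388, minus strand: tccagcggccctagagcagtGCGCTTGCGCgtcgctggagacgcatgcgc
Cox6a1, chr5:115349046-115349095, minus strand: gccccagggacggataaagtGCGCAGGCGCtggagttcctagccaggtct
Sdha, chr13:74350266-74350315, minus strand: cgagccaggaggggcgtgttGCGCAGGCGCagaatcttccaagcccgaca
Sdhd, chr9:50603899-50603948, minus strand: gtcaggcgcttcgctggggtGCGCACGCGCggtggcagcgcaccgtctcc

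Levels were read as FPKM, fragments divided by transcript length and by the mapped fragments of the library, which puts genes of different length on 1 scale. The library totals lay between 117363 and 134410 FPKM, and the lowest values placed the depth at an estimated 16597510 to 24740228 fragments per library. A transcript of 2 kb at 1 FPKM then stood for 33.2 to 49.5 fragments. Summed marker levels were 701 to 1880 FPKM for 8 oligodendrocyte genes, 728 to 1060 for 12 neuronal genes, 140 to 370 for 6 astrocyte genes and 37.0 to 97.6 for 6 microglial genes, so the libraries held RNA of all these cells. In bulk tissue, fewer cells of a type and less RNA per cell cannot be told apart.

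Among the 81 genes, Atp5b (the catalytic beta subunit of ATP synthase) and Atp5a1 (its alpha subunit) were in the top 3 by level in all 4 groups. They stood at 168 and 157 FPKM averaged over the 12 libraries. The third gene of the top 3 differed between the lines. In dnEGFR controls and mutants it was Cox6b1 (174 and 184 FPKM), and in the ErbB2V664E groups it was Cox6a1 (154 and 209 FPKM), both small subunits of cytochrome c oxidase. Ndufb9 of complex I averaged 78.0 and Sdha, the flavoprotein of complex II, 73.1. In complex III, Uqcrh (the hinge protein) was the highest in the dnEGFR groups (99.4 and 89.1) and Uqcr11 in the ErbB2V664E groups (50.5 and 47.1), where Uqcrh stood at 18.3 and 28.1. Median levels differed between complexes: in the dnEGFR controls the median over genes was 14.3 ± 1.4 FPKM for complex I, 30.7 ± 1.21 for II, 39.3 ± 6.30 for III, 28.7 ± 7.04 for IV and 18.1 ± 1.15 for V (SD, n = 3). Of the 63 genes that reached 10 FPKM in some group, 4 (6.35%) varied more than 3-fold between the libraries of 1 group, against 19.5% of all such loci. They were Cox7a2l, Ndufb6, Uqcr10 and Uqcrfs1, and their values below rest on uneven libraries. The loci of 7 genes were joined with a neighbour (Atp5o with Donson, Cox7a1 with Gm5113, Cox8a with Otub1 and Naa40, Ndufb2 with Adck2, Ndufb8 with Sec31b and Gm20538, Ndufs8 with Aldh3b1, and Sdhc with Pcp4l1), so their values can include the neighbour. Many genes of this kind have processed pseudogenes, and the labels do not say how fragments that match several copies were assigned.

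In complex IV, subunits with several isoform genes had 1 isoform far above the other, as means over the 12 libraries show. Cox6b1 stood at 118 FPKM and Cox6b2, known for its expression in testis, at 0.744. Cox6a1 stood at 139 and Cox6a2, the heart and skeletal muscle form, at 3.23. Cox7a2 stood at 22.1 against 2.64 for the muscle form Cox7a1. Their relative Cox7a2l, 1 of the uneven genes named above, stood higher than both at 59.5. Cox7b stood at 61.2 against 0.165 for Cox7b2. Cox8a stood at 13.8 against 0.296 for the muscle form Cox8b. Markers of striated muscle (7 genes) summed to between 2.36 and 3.58 FPKM in the 12 libraries. Ndufa4 stood at 55.6 and its relative Ndufa4l2, known as a hypoxia-induced gene, at 1.55. The c-ring subunit of ATP synthase is made from Atp5g1, Atp5g2 and Atp5g3, which encode the same mature protein, and these stood at 8.35, 5.89 and 27.7. Atp5g3 made up 74.0% and 70.9% of their summed mean level in the dnEGFR controls and mutants, and 48.1% and 51.3% in those of ErbB2V664E. Cox7b2 and Cox8b did not reach 1 FPKM in 3 libraries and were not tested, which left 79 of the 81 genes, and Cox6b2 passed only through libraries of the dnEGFR line.

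**Figure D1:**
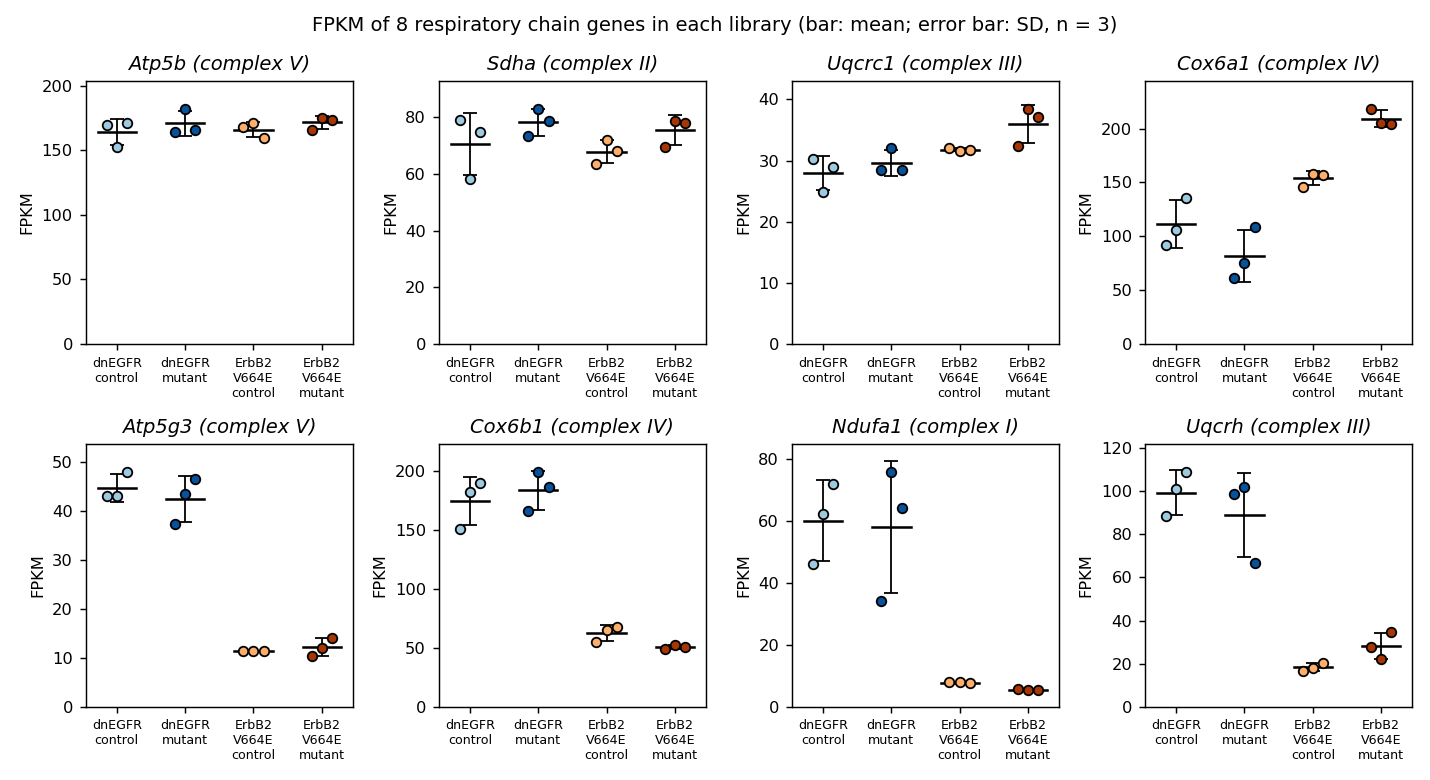
FPKM (vertical axes, from 0) of 8 respiratory chain genes in the 3 libraries of each group, with the group mean (bar) and SD (error bar). Atp5b and Sdha overlap between the lines, Uqcrc1 is higher in ErbB2V664E within controls and within mutants, and Atp5g3, Cox6b1, Ndufa1 and Uqcrh are lower in all 6 libraries of the ErbB2V664E line and Cox6a1 is higher in all 6.

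The first comparison asked whether the subunit genes changed in dnEGFR mutants. None of the 79 passed the test (limma on log2(FPKM + 1), p adjusted over 13803 loci, threshold 0.05), where 0.0942% of all loci did, and the lowest adjusted p was 0.687. At an unadjusted p under 0.05 there were 6 (5.69% of all loci): Cox6a1, Ndufb3, Ndufb6, Uqcr10, Uqcrfs1 and Uqcrq. The median log2 difference was 0.06 over the 79 genes and 0.01 over all loci, with 54 values above 0 and 25 below. Thus 31.6% of the genes lay below 0, against 48.1% of all loci. Among all loci with short transcripts, 33.2% lay below 0 under 600 nt and 41.5% from 600 to under 1000 nt. The part of length in this was not tested. By complex the medians were 0.06 for I, 0.07 for II, 0.12 for III, 0.08 for IV and 0.05 for V. The catalytic subunits had narrow intervals: Atp5b differed by 0.05 (95% interval -0.12 to 0.23) and Atp5a1 by 0.09 (-0.14 to 0.32). Among cell markers, all 8 of striatal neurons (median 0.56) and all 5 of red blood cells (0.46) lay higher in these mutants. Of oligodendrocyte markers 6 of 8 lay lower (-0.11), and of neuronal ones 10 of 12 (-0.14). Astrocyte, microglial, precursor, vascular and ependymal markers went both ways. No marker passed, and their part in the subunit values was not tested.

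The 2 largest differences in this line were those of Uqcrfs1 and Uqcr10 in complex III, and both rested on uneven controls. Uqcrfs1, the Rieske iron-sulfur protein that carries electrons to cytochrome c1, was at 57.1, 7.98 and 8.81 FPKM in the dnEGFR controls and at 47.6, 59.8 and 50.9 in the mutants. Control 1 lay among the mutants and the other controls lay far below, and the log2 difference was 1.64 (SE 0.62, adjusted p = 0.812). Without control 1 it was 2.51 with an adjusted p of 0.0176. Uqcr10, a small accessory subunit, was at 1.54, 40.4 and 3.42 in controls and at 37.2, 50.9 and 18.3 in mutants. Here control 2 lay among the mutants, and the log2 difference was 2.12 (SE 0.83, adjusted p = 0.832). Without control 2 it was 3.33 with an adjusted p of 0.0129. In both genes the control left out was the one that lay among the mutants. A larger difference had to follow, so these adjusted p-values are no support for a change. Uqcrq, which binds near the ubiquinone site, was more even, at 14.7, 15.6 and 12.4 against 22.7, 16.7 and 20.4 FPKM. Its groups did not overlap, with a log2 difference of 0.45 (SE 0.14, adjusted p = 0.687).

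Within litters, 12 of the 79 genes were higher in the mutant in all 3 litters and 5 were lower, where 13.3% of all loci were higher and 11.6% lower in this way. Groups did not overlap for 4 of the 79 genes in this line, where they did not for 10.1% of all loci. Uqcrq and Ndufb6 lay higher in mutants, and Atp5s and Ndufb8 lay lower, where 5.58% of all loci lay higher and 4.57% lower without overlap. Ndufb6, an accessory subunit in the membrane arm of complex I, was at 14.3, 12.9 and 15.1 FPKM in controls and at 23.4, 32.2 and 25.4 in mutants (log2 difference 0.88, SE 0.38, adjusted p = 0.865). Cox6a1 lay the other way, at 92.0, 106 and 136 against 61.6, 74.8 and 109, with 1 mutant above 2 of the controls (-0.46, SE 0.19, adjusted p = 0.859). Ndufb3, an accessory subunit of the same arm, was at 51.9, 49.8 and 68.6 against 31.3, 35.8 and 53.2 (-0.51, SE 0.20, adjusted p = 0.812). Both genes were lower than in the littermate in 3 of 3 litters, and with a litter block neither passed (adjusted p = 0.633 and 0.664).

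The second comparison asked the same of ErbB2V664E mutants. Again none of the 79 genes passed the test, where 0.275% of all loci did, and the lowest adjusted p was 0.252. At an unadjusted p under 0.05 there were 7 (12.1% of all loci): Atp5a1, Cox6a1, Cox6b1, Ndufa13, Ndufb4, Sdhc and Uqcrh. The median log2 difference was 0.05 over the 79 genes and 0.00 over all loci, with 48 values above 0 and 31 below (39.2% below, against 49% of all loci). By complex the median was 0.04 for I, 0.04 for II, 0.14 for III, -0.07 for IV and 0.05 for V. Groups did not overlap for 13 of the 79, 7 higher and 6 lower in mutants, where they did not for 18.2% of all loci (9.28% higher and 8.96% lower). Within litters, 20 were higher in the mutant in all 3 litters and 11 lower, where 18.1% of all loci were higher and 16.8% lower. Markers of several cell types lay lower in these mutants: all 8 of oligodendrocytes (median -0.77, with Mag past the threshold), all 6 of microglia (-0.63), 5 of 5 tested of astrocytes (-0.56), all 6 of precursors (-0.19), all 6 of ependyma and choroid plexus (-0.65) and all 5 of red blood cells (-1.57). Of neuronal markers 7 of 12 lay higher (0.04) and of vascular ones 5 of 6 (0.12), while 6 of 8 of striatal neurons lay lower (-0.14). The part of these marker differences in the subunit values was not tested.

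Uqcrh, which helps cytochrome c1 meet cytochrome c, was at 16.7, 17.8 and 20.3 FPKM in the ErbB2V664E controls and at 27.8, 22.1 and 34.5 in the mutants (log2 difference 0.58, SE 0.19, adjusted p = 0.253). Ndufb4, another membrane-arm subunit, was at 14.2, 8.03 and 14.5 against 16.5, 18.0 and 20.2 (0.58, SE 0.19, adjusted p = 0.252). In both genes every mutant lay above every control. Within complex IV the genes went both ways: Cox6a1 was at 146, 158 and 157 against 218, 205 and 204 (0.44, SE 0.19, adjusted p = 0.401), and Cox6b1 at 54.9, 65.2 and 67.2 against 49.1, 52.4 and 50.8 (-0.29, SE 0.12, adjusted p = 0.36). The mutants lay above the controls for the first gene and below them for the second. Sdhc, a membrane anchor of complex II, was at 41.6, 35.6 and 37.2 in controls and at 35.4, 13.4 and 27.3 in mutants (-0.67, SE 0.29, adjusted p = 0.386). Ndufa13, also known as GRIM-19, was at 21.2, 21.5 and 25.3 against 10.9, 23.4 and 13.0, with mutant 2 among the controls (-0.57, SE 0.24, adjusted p = 0.385).

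The difference between the 2 mutant effects was tested as an interaction, and no subunit gene passed (0.116% of all loci did). At an unadjusted p under 0.05 there were 5 genes (9.01% of all loci), which were Uqcrq, Cox6a1, Uqcrh, Ndufb3 and Sdhc. Uqcrq had the lowest adjusted p, 0.37, with an interaction of -0.74 on the log2 scale (SE 0.20). Cox6a1 followed with 0.90 (SE 0.27, adjusted p = 0.399). The precision sets what these comparisons could show: the 95% intervals lay within 1.5-fold in either direction for 56 of the 79 genes in dnEGFR, 58 in ErbB2V664E and 41 for the interaction, and within 2-fold for 74, 70 and 58.

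**Figure D2:**
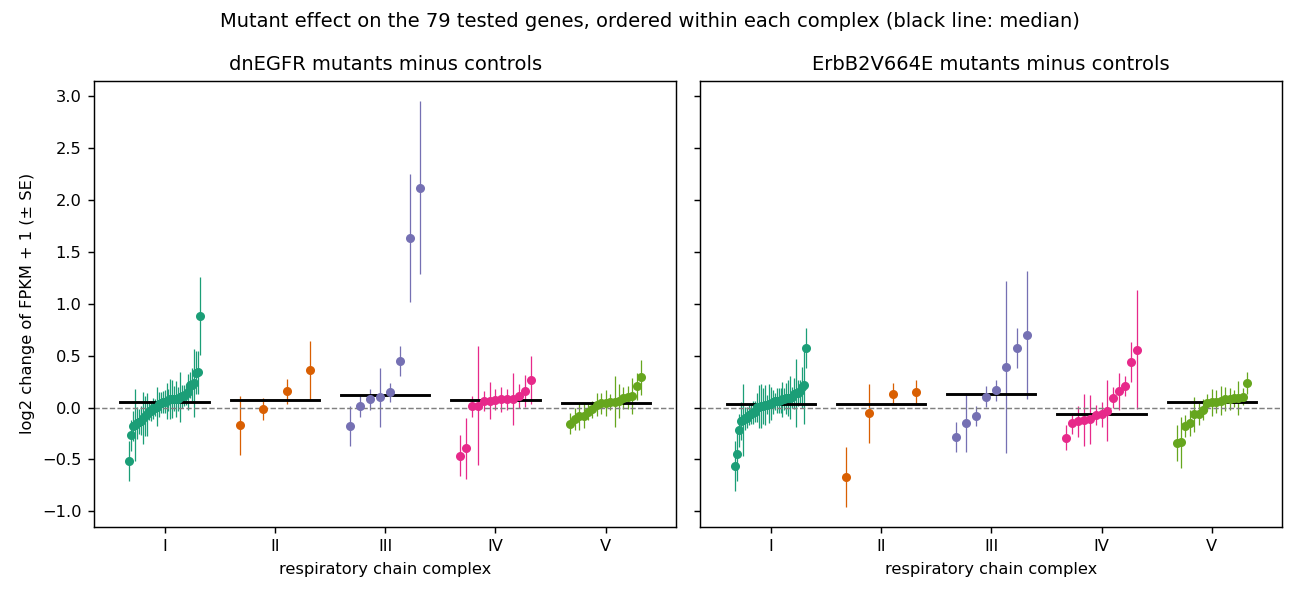
Log2 difference of FPKM + 1 (vertical axis, with SE) between mutants and controls for the 79 tested genes, ordered by size within each complex (horizontal axis), in the dnEGFR line (left) and the ErbB2V664E line (right). Black lines are medians per complex, which lie between -0.07 and 0.14, and the points highest on the left are Uqcr10 (2.12) and Uqcrfs1 (1.64).

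The 2 lines were then compared with each other. In the ErbB2V664E controls 38 of the 79 were lower than in the dnEGFR controls and 2 were higher, 40 in all, where 9.12% of all loci were lower and 10.9% higher. The mutant groups, compared after the control groups had been seen, gave 42 lower and 5 higher, where 11.4% of all loci were lower and 12.7% higher. The medians were -0.34 in controls and -0.45 in mutants on the log2 scale, against 0.01 over all loci in both. The lines differed in transgene, age, length of treatment and litters, and possibly in preparation, and these cannot be told apart. The group means set against each other in the 2 comparisons share no library. Both comparisons used the same estimate of spread per gene, from all 12 libraries, and the mice came from the same 6 litters. Their calls are therefore not independent. In all, 37 genes passed in both, 35 lower and 2 higher, which is 92.5% of those called in controls and 78.7% of those called in mutants. Of all called loci, 66.1% and 54.8% were called in both, and 6.05% of all tested loci were lower and 7.11% higher in both. Of the 35 subunit genes, 3 stood at joined loci. For 40 genes all 6 libraries of the ErbB2V664E line lay below all 6 of the dnEGFR line (9.44% of all loci did so), and for 3 genes they lay above (10.5%).

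The summed level of the 81 genes was 2620 to 2930 FPKM in the dnEGFR controls, 2680 to 3010 in the dnEGFR mutants, 1970 to 2060 in the ErbB2V664E controls and 2000 to 2240 in the ErbB2V664E mutants. The ranges of the lines did not overlap, while those of mutants and controls within a line did. By complex, the summed level in controls was 851 to 971 against 610 to 640 FPKM for complex I, 130 to 148 against 132 to 135 for II, 308 to 343 against 225 to 262 for III, 566 to 766 against 465 to 481 for IV and 677 to 743 against 530 to 546 for V. In controls the ranges of complex II overlapped, and those of the other 4 complexes did not. The complex III sums rested largely on Uqcrh, with a mean of 99.4 FPKM in dnEGFR controls and 18.3 in ErbB2V664E controls. Of the 8 genes of complex III, 5 lay higher in the ErbB2V664E controls (median log2 difference 0.25). In mutants the complex II sums were separate too, at 150 to 167 in dnEGFR and 125 to 133 in ErbB2V664E. Within lines, the mutant sums lay above the control sums without overlap for complex II in dnEGFR and for complex IV in ErbB2V664E (517 to 552 in mutants). Single genes weighed heavily in both sums. Cox6a1 went from a mean of 154 FPKM in ErbB2V664E controls to 209 in mutants. Of the 13 tested complex IV genes, 8 lay lower in those mutants (median log2 difference -0.07). Sdhc, at a joined locus, went from 34.7 in dnEGFR controls to 45.3 in mutants, and 2 of the 4 complex II genes lay lower.

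**Figure D3:**
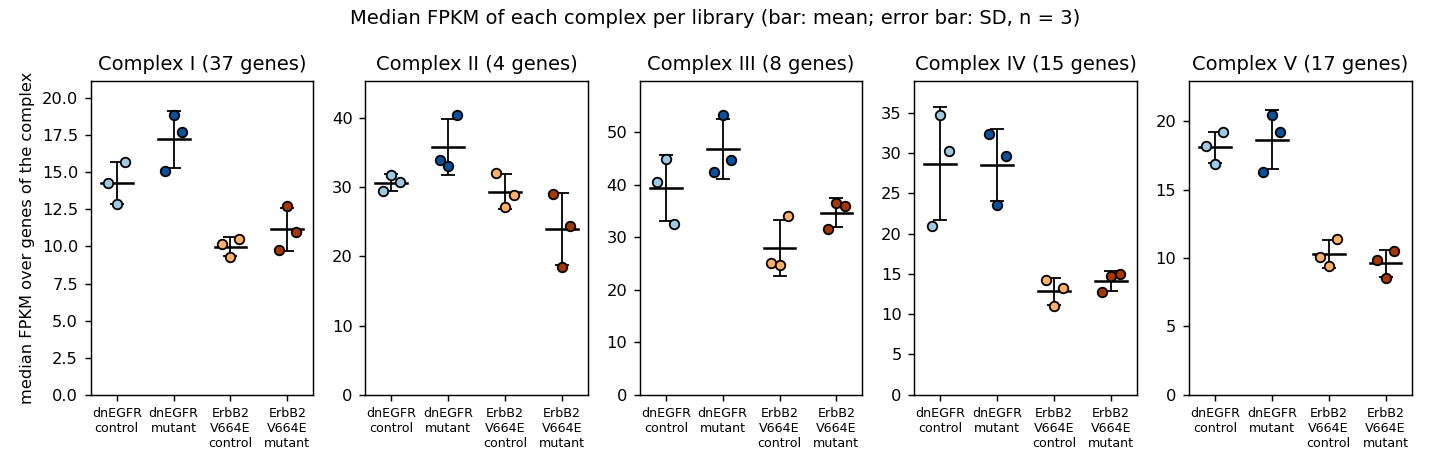
Median FPKM over the genes of each complex (vertical axes, from 0) in the 3 libraries of each group, with the group mean (bar) and SD (error bar). The complex I, IV and V medians of the ErbB2V664E line lie below those of the dnEGFR line (10.3 ± 1.01 against 18.1 ± 1.15 for complex V in controls), and the complex II medians of the control groups overlap.

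Of the 17 genes of complex V, 11 were lower and 1 higher in controls, 12 lower and 2 higher in mutants, and 10 lower in both. The shares of all loci were 9.12% lower and 10.9% higher in controls, 11.4% and 12.7% in mutants, and 6.05% lower in both. The genes of the catalytic subunits overlapped between the lines: Atp5b was at 153 to 182 FPKM in the dnEGFR line and 160 to 175 in the ErbB2V664E line (log2 difference in controls 0.01, 95% interval -0.16 to 0.19), and Atp5a1 at 144 to 169 and 138 to 185 (-0.09, -0.32 to 0.14). Atp5c1, the gamma subunit that forms the rotating stalk, was lower by a smaller step (-0.47, SE 0.08, adjusted p = 0.00445), and Atp5d, the delta subunit of the stalk, was higher (0.52, SE 0.14, adjusted p = 0.0256). Without single libraries the Atp5d call was lost in 4 of 6 cases. Atp5e, the epsilon subunit of the same stalk, was lower in controls (-0.72, adjusted p = 0.0169) and in mutants (-1.17, adjusted p = 0.00142). Its call in controls was lost without ErbB2V664E control 1 or 2 and with the compared groups alone. Atp5c1 and Atp5d were named here after their values were seen.

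Among the genes of the membrane part and the peripheral stalk the size of the difference varied widely. Atp5g3, a c-ring gene, was at 43.1, 43.1 and 48.0 FPKM in the dnEGFR controls and at 37.4, 43.4 and 46.6 in the dnEGFR mutants. It was at 11.3, 11.4 and 11.4 in the ErbB2V664E controls and at 10.4, 12 and 14.1 in the mutants. The lines stood far apart with no overlap, and their means in FPKM differed 3.94-fold in controls and 3.49-fold in mutants. On the log2 scale of FPKM + 1 the difference was -1.89 in controls (SE 0.12, adjusted p = 1.27e-05) and -1.73 in mutants (adjusted p = 2.32e-05). The other c-ring genes differed less: Atp5g1 by -0.30 (adjusted p = 0.0781) and Atp5g2 by -0.32 (0.119) in controls. Atp5g3 was thus the leading c-ring message in both lines, at 44.7 ± 2.82 against 11.4 ± 0.0784 FPKM in controls (SD, n = 3). Atp5k, the e subunit that takes part in joining ATP synthase into dimers, was at 24.5, 39.8 and 42.2 in the dnEGFR controls and 7.25, 8.38 and 11.4 in the ErbB2V664E controls (-1.85, SE 0.25, adjusted p = 0.000958). Atp5l (the g subunit, -1.21), Atp5j2 (the f subunit, -1.02), Atp5h (the d subunit of the peripheral stalk, -1.04) and Atp5j (its F6 subunit, -0.86) also passed in controls, with adjusted p between 0.000224 and 0.0011, and in mutants. The peripheral-stalk genes Atp5f1 (-0.32, adjusted p = 0.0206) and Atp5o (-0.34, adjusted p = 0.0434), named after their values were seen, were lower by less in controls. The first call was lost in 4 of 6 cases when single libraries were left out, and the second in all 6. Atp5s was lower too (-0.70, adjusted p = 0.00165).

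Of the 13 tested genes of complex IV, 6 were lower in controls and in mutants alike, where 6.05% of all loci were: Cox6b1, Cox5a, Cox7a2, Cox6c, Cox7b and Cox7c. Cox6b1, which faces the intermembrane space and helps hold the dimer together, was at 151, 182 and 190 FPKM in the dnEGFR controls and 166, 199 and 186 in the dnEGFR mutants, against 54.9 to 67.2 in the ErbB2V664E controls and 49.1 to 52.4 in the mutants (-1.46 in controls, SE 0.12, adjusted p = 6.43e-05). Cox5a, a subunit on the matrix side, was at 18.4, 19.3 and 21.8 in the dnEGFR controls and at 7.71, 7.28 and 6.80 in the ErbB2V664E controls (-1.33, SE 0.10, adjusted p = 4.35e-05). No library of the ErbB2V664E line reached the lowest one of the dnEGFR line for either gene. Cox7a2 (-1.23), Cox6c (-1.22) and Cox7b (-0.76) also differed in controls, with adjusted p between 7.15e-05 and 0.00087.

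Cox6a1, which sits at the dimer interface of complex IV, was higher in all 6 libraries of the ErbB2V664E line (146 to 218 FPKM) than in the 6 of the dnEGFR line (61.6 to 136). In controls this difference was 0.48 (SE 0.19) and did not pass (adjusted p = 0.109), and in mutants it was 1.38 (adjusted p = 0.00106). The change between these is the interaction given above, which did not pass. Cox6b1 was above Cox6a1 in every dnEGFR-line library, and Cox6a1 was above Cox6b1 in every ErbB2V664E-line library. Cox5b, the zinc-binding subunit, overlapped between the lines at 52.3 to 66.8 and 30.6 to 66.7 (-0.34 in controls, adjusted p = 0.379). Cox8a did not pass in controls (-0.21, adjusted p = 0.157), where the groups were separate, or in mutants, where they overlapped. The muscle form Cox6a2 stood at 1.84 to 2.93 and 2.51 to 4.86, with 0.52 in controls (adjusted p = 0.0696) and 0.60 in mutants (adjusted p = 0.0349).

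In complex I, 18 of 37 genes were lower and 1 was higher in controls, 20 lower and 1 higher in mutants, and 17 were lower in both. Of all loci, 9.12% were lower and 10.9% higher in controls, 11.4% and 12.7% in mutants, and 6.05% lower in both. Ndufa1, a small X-linked subunit needed for assembly of the membrane arm, differed most: it was at 46.0, 62.0 and 71.8 FPKM in the dnEGFR controls and at 34.2, 75.7 and 63.9 in the dnEGFR mutants. It was at 7.79, 8.01 and 7.55 in the ErbB2V664E controls and at 5.67, 5.34 and 5.31 in the mutants. The means in FPKM were 7.70-fold apart in controls and 10.6-fold apart in mutants. On the log2 scale of FPKM + 1 the difference was -2.77 in controls (SE 0.26, adjusted p = 0.00014) and -3.12 in mutants (adjusted p = 6.57e-05). The lowest dnEGFR-line library lay above the highest ErbB2V664E-line library by a wide margin. Ndufs4, a subunit needed for a stable NADH-binding module, was at 22.5, 20.4 and 15.4 in the dnEGFR controls and at 3.90, 4.86 and 4.16 in the ErbB2V664E controls (-1.93, SE 0.16, adjusted p = 6.43e-05). Ndufc1 (-1.32), Ndufa7 (-1.12), Ndufa3 (-1.09), Ndufb5 (-0.79) and Ndufc2 (-0.67), accessory subunits, passed in both comparisons too.

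Ndufv1 and Ndufs1, core subunits of complex I that carry its cofactors, were lower by smaller steps. Ndufv1, which binds NADH, was at 18.9, 18.8 and 20.3 FPKM in the dnEGFR controls and at 11.6, 13.7 and 11.7 in the ErbB2V664E controls (-0.61, SE 0.11, adjusted p = 0.00397). Ndufs1, with iron-sulfur clusters, was at 14.1, 12.2 and 13.3 against 9.06, 9.27 and 8.08 (-0.54, SE 0.09, adjusted p = 0.00327). The control groups of the lines were separate for both genes. Ndufs7, another core subunit, was the 1 complex I gene that was higher (0.46, adjusted p = 0.0244), a call that was lost when any 1 of 4 libraries was left out, and it was named after its value was seen. Ndufa4 was lower in both comparisons (-0.86 in controls, adjusted p = 0.00833). Ndufa10 and Ndufv3, named after their values were seen, differed by -0.05 and 0.00 in controls, and their libraries overlapped.

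In complex II 1 of 4 genes passed in controls and 1 in mutants, and in complex III 2 of 8 and 3 of 8, all lower, where 9.12% of all loci were lower in controls and 11.4% in mutants. With so few genes these counts say little beside those shares. Sdha was at 79, 58.4 and 74.8 FPKM in the dnEGFR controls and 63.6, 71.9 and 68.3 in the ErbB2V664E controls, with overlapping libraries (-0.05, 95% interval -0.32 to 0.22). Sdhb, the iron-sulfur subunit, was lower in controls (-0.36, adjusted p = 0.0365) and not past the threshold in mutants (-0.22, adjusted p = 0.165). Sdhc was lower in mutants (-0.89, adjusted p = 0.0464) and at 0.13 in controls, and Sdhd was at -0.20 and -0.09. The calls of Sdhb and Sdhc were each lost when any 1 of several libraries was left out. In complex III, Uqcrh was at 88.4, 101 and 109 in the dnEGFR controls and 98.8, 102 and 66.7 in the dnEGFR mutants, against 16.7 to 20.3 and 22.1 to 34.5 in the ErbB2V664E line, with no overlap (-2.38 in controls, SE 0.19, adjusted p = 6.84e-05, and -1.63 in mutants). Of the core proteins, Uqcrc2 was lower (-0.40, adjusted p = 0.02), and Uqcrc1 was at 0.18 (adjusted p = 0.238). The Uqcrc2 call was lost when any 1 of 4 libraries was left out. The median of complex III was 0.25 in controls and -0.34 in mutants, and its genes Uqcr10 and Uqcrfs1 are the uneven ones described above.

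**Figure D4:**
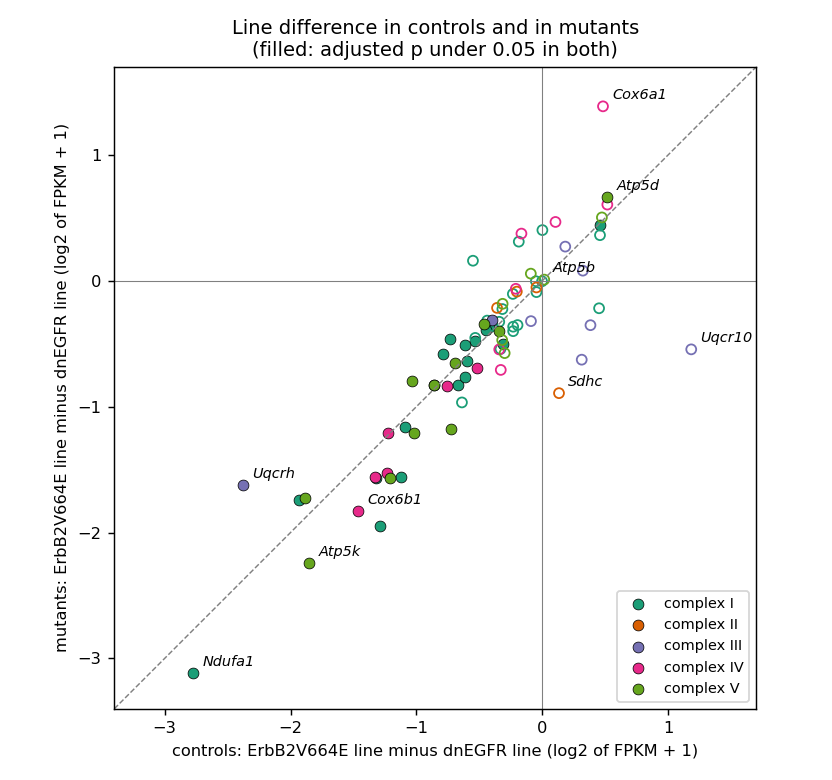
Log2 difference of FPKM + 1 between the ErbB2V664E and dnEGFR lines in controls (horizontal axis) and in mutants (vertical axis) for the 79 tested genes, coloured by complex, with the line of equality dashed. Filled points passed in both (37 genes), most lie in the lower left quadrant with Ndufa1 at -2.77 and -3.12, and Cox6a1 lies at 0.48 and 1.38.

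Several measures moved with the line difference, and their part in it was not tested. The subunit transcripts are short, with a median length of 680 nt against 2452.5 nt over the 11321 tested loci with a length, and short transcripts as a whole lay lower in the ErbB2V664E controls. The median log2 difference over all loci was -0.09 under 600 nt, -0.08 from 600 to under 1000 nt, -0.02 from 1000 to under 2000 nt and 0.06 from 2000 nt. For the subunit genes it was -0.53, -0.37, -0.32 and -0.20 in the same ranges, over 27, 26, 21 and 4 genes. The share lower past the threshold, in the same order, was 51.9%, 46.2%, 57.1% and 0% of the subunit genes, and 24.8%, 16.4%, 11.4% and 6.36% of all loci. Across the 78 subunit genes with a length, Spearman's rho between length and the difference was 0.25, as a description over genes that share the same libraries.

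**Figure D5:**
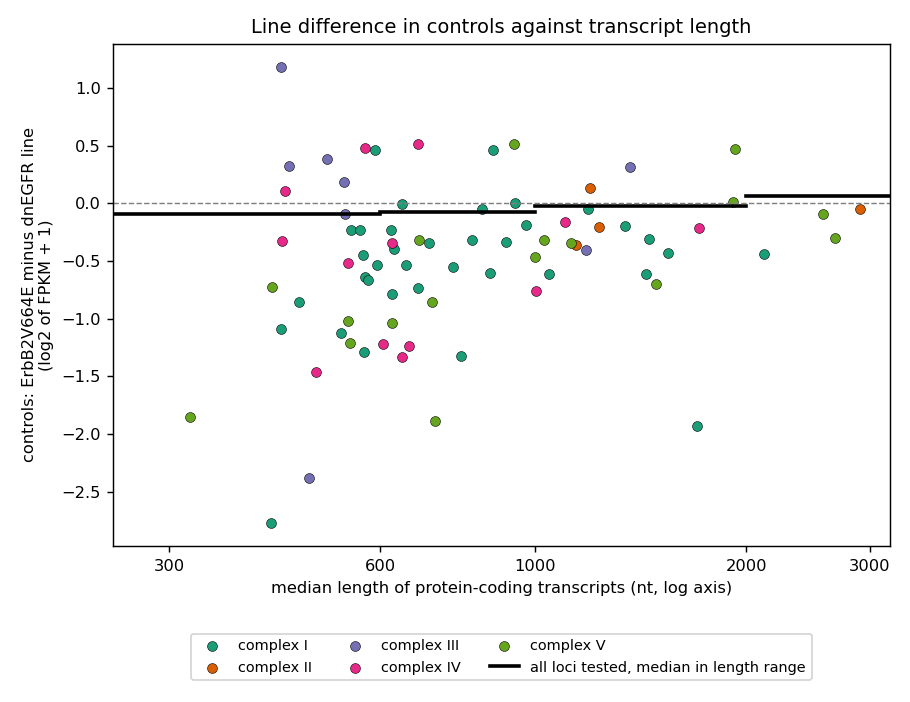
Log2 difference of FPKM + 1 between the control groups of the lines (vertical axis) against transcript length (horizontal log axis, in nt) for the subunit genes with a length, coloured by complex. Black bars are the medians of all tested loci in 4 length ranges, from -0.09 to 0.06, and most subunit genes lie below the bar of their range.

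Marker levels were read in the same comparison. The summed oligodendrocyte markers were 1060 to 1210 FPKM in the dnEGFR controls and 1150 to 1880 in the ErbB2V664E controls, and neuronal markers 911 to 1050 and 899 to 1060. Of 12 neuronal markers 1 was higher (Rbfox3) and 2 lower (Nefm and Stmn2) in each of the line comparisons. All 8 markers of striatal neurons lay higher in the ErbB2V664E controls (median 0.56), with sums of 204 to 371 against 111 to 183 FPKM. All 5 tested astrocyte markers did too (median 0.28), with sums of 185 to 370 against 140 to 158. In mutants 4 of the 8 striatal markers lay higher and 4 lower, and 3 of the 5 astrocyte markers higher and 2 lower. In controls, 2 of 8 markers of striatal neurons were higher (Drd2 among them), 1 of 5 astrocyte markers (Gfap), 1 of 6 precursor markers (Matn4, with Lhfpl3 lower), 1 of 6 ependymal and choroid plexus markers (Foxj1, with Ccdc153 lower), and 0 of 8 oligodendrocyte, 6 microglial, 6 vascular and 5 red blood cell markers passed (1, 2, 0 and 0 at an unadjusted p under 0.05, where 34.3% of all loci were). In mutants, 2 of 8 oligodendrocyte markers (Mag among them), 2 of 6 microglial markers (Cx3cr1 among them), and 4 of 5 red blood cell markers (Hba-a1, Hba-a2, Hbb-bs and Hbb-bt) were lower. Of 6 ependymal and choroid plexus markers, Foxj1 was higher and Ccdc153 and Tmem212 lower there, Matn4 was higher and Lhfpl3 lower of the precursor markers, and Pdgfrb was higher of the vascular ones. Of all loci, 20% passed in controls and 24.1% in mutants, counted in either direction. With so few markers per cell type, counts of 1 or 2 say little beside these shares. No marker was at 0 in all 3 libraries of a group.

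Other genes of the pathway were counted in the same comparison, where 9.12% of all loci were lower and 10.9% higher in controls. In mutants 11.4% of all loci were lower and 12.7% higher. Among 15 tested complex I assembly factors, 4 were lower and 0 higher in controls (Foxred1, Ndufaf5, Ndufaf7 and Ndufaf8), with a median of -0.27, and 6 were lower in mutants. Among 14 assembly factors of complexes II, III and V, 3 were lower (Sdhaf4, Ttc19 and Uqcc2) and 1 higher (Lyrm7) in controls, with a median of 0.12. Among 24 of complex IV, 2 were lower (Higd1a and Surf1) and 1 higher (Cox16), with a median of -0.12. Sdhaf4, which helps mature the Sdha flavoprotein, was at 3.06, 3.17 and 4.10 FPKM in the dnEGFR controls and 1.31, 1.13 and 0.68 in the ErbB2V664E controls (-1.13, adjusted p = 0.00385).

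Of 7 tested subunits and carriers whose symbols the rule does not match, Usmg5 was lower in controls and, with Cox4i2, in mutants. Usmg5, a small ATP synthase subunit also called DAPIT, was at 145, 160 and 190 FPKM in the dnEGFR controls and at 87.5, 104 and 108 in the ErbB2V664E controls (-0.72, adjusted p = 0.0111). Cox4i1, the main form of complex IV subunit 4, was at 141, 174 and 162 against 124, 134 and 152 and did not pass (-0.21, adjusted p = 0.372). Cyc1, the cytochrome c1 gene, was at 16.3 to 18.9 against 18.6 to 21.5 (0.14, adjusted p = 0.4), and Atpif1, the inhibitor of ATP synthase, at 21.4 to 29.0 against 26.7 to 34.2 (0.25, adjusted p = 0.407).

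Of 17 enzymes of the tricarboxylic acid cycle, 2 were higher (Ogdh among them) and 3 lower (Sucla2, Suclg1 and Suclg2) in controls, with a median of -0.08. None of 17 glycolysis and lactate genes passed in controls, with a median of 0.06. At an unadjusted p under 0.05 there were 7, where 34.3% of all loci were. In mutants 3 were higher and 2 lower, where 12.7% of all loci were higher and 11.4% lower. Of 15 transcriptional regulators of mitochondrial genes, 4 were higher (Hcfc1, Polrmt, Ppargc1b and Pprc1) and 1 lower in controls. The lower one was Tfam, which packages and transcribes mitochondrial DNA, at 5.66, 5.38 and 5.72 FPKM in the dnEGFR controls and 3.58, 3.63 and 3.08 in the ErbB2V664E controls (-0.57, SE 0.08, adjusted p = 0.00104). Polrmt, the mitochondrial RNA polymerase, was higher (0.45, adjusted p = 0.00418), and so was the coactivator Ppargc1b (0.65, adjusted p = 0.00283). Nrf1 was at -0.12 (adjusted p = 0.343) in controls and -0.39 (adjusted p = 0.00992) in mutants. In the mutant comparisons, 0 of 111 tested genes of these 8 pathway lists passed in limma. Of all loci 0.0942% passed in dnEGFR and 0.275% in ErbB2V664E. At an unadjusted p under 0.05 there were 9 in dnEGFR (5.69% of all loci) and 11 in ErbB2V664E (12.1% of all loci).

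Of 13 mitochondrially encoded subunits 3 were found under these symbols, and their values were too uneven to set beside the nuclear genes. mt-Nd5 lay between 8.42e-05 and 2770 FPKM in the ErbB2V664E mutants, and mt-Nd1 was listed at 0 in 11 libraries and at 1290 in ErbB2V664E mutant 3.

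The promoter letters described at the start were counted again by line difference. Among the genes with a window, 32 were lower in the ErbB2V664E controls and 32 others were tested. The NRF1 letters stood in 7 of the lower and 10 of the others, the ETS letters in 11 and 5, the YY1 letters in 5 and 2, and the CCAAT box in 13 and 15. These counts are a description of chosen genes and carry no test.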

How the data were processed

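Poly(A) RNA from Trizol extracts was fragmented, copied with random hexamers and sequenced in paired ends on a HiSeq4000, per the labels' protocols. No step that keeps the strand is named, so genes overlapping on opposite strands may not have been separable. The authors deposited FPKM values, calculated with StringTie according to the design text. HISAT and StringTie are listed, with no version, in the submitters' processing notes, and build, annotation and options were not given in the sources used here.

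From these values, log2(FPKM + 1) was fitted with limma 3.58.1 in R 4.3.3 (group means over 12 libraries, empirical Bayes with a variance trend, 8 residual and 2.03 prior degrees of freedom, two-sided). Loci with at least 1 FPKM in at least 3 libraries entered, 13803 in all, and adjusted p-values (Benjamini and Hochberg, over all loci that entered) under 0.05 passed. Low genes change less on this scale than in FPKM. The fit was checked on simulated data. Groups came from the genotype labels. Mutants were compared with controls in each line, then the difference of these effects and the lines in controls; the lines in mutants were added after seeing the data. Alternatives were a pseudocount of 0.1, no filter, median-ratio scaling, the compared groups alone, summed loci of a symbol, a litter block, and leaving out each library.

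The descriptions name each mutant's littermate control, so libraries are paired by litter (6 litters). Within pairs, deviations correlated at 0.02, 0.01, 0.03, 0.00, 0.01 and -0.03 over all tested loci and at -0.20, 0.17, 0.47, 0.11, -0.13 and -0.19 over the subunit genes. P-values reflect the spread between mice. Replicates correlated at 0.91 to 0.926 (Pearson), and no columns were identical. Fragments per library were estimated from the steps of the lowest values in 14221 loci with 1 transcript. Fragment counts were not used.

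Genes and lists were chosen with earlier results of these data known, so counts and medians stand in for tests of lists. Genes were named when they passed a comparison (up to 20 by p in each), had the largest difference in either direction in their complex and line, had the highest level of their complex, or were core subunits or isoforms; others are said to be named after their values were seen. Some genes that these rules or lists take are not reported here. Transcript lengths are medians over protein-coding transcripts in GENCODE M21, which held 99.5% of the 91226 Ensembl transcripts listed. Python 3.11.15 was used with pandas 2.3.3 and numpy 2.4.6, and figures were drawn with matplotlib 3.10.9.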

Additional observations from a re-analysis of the deposited data

How the results depend on the processing

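No named gene that passed changed direction under any alternative. With a litter block, which pairs each mutant with its littermate, 0 of the 79 genes passed in dnEGFR, ErbB2V664E and their difference, as without it, and the block changed no other call; it could not be applied between lines. Under the alternatives other than leaving out a library, the count of genes in the line comparison lay between 32 and 42 in controls (40 as reported) and between 36 and 48 in mutants (47). Leaving out each library in turn gave 32 to 36 in controls and 34 to 42 in mutants, and 30 of the 40 and 34 of the 47 calls were kept in all 6 cases. It gave medians of -0.40 to -0.34 in controls and -0.51 to -0.35 in mutants. In dnEGFR it gave 0 to 1 genes, the 1 being Uqcrfs1 without control 1 or Uqcr10 without control 2, and 0 in ErbB2V664E and in the difference. Of 28 calls taken by the naming rule in controls, Ndufb6, Sdhb, Uqcrc2 and Atp5e were lost under some alternative, and those lost of 32 in mutants included Atp5g2, Cox6a2, Sdhc and Uqcrc2; the cause was not tested. With 3 mice per group, 95% intervals exceeded 2-fold for 5 genes in dnEGFR and 9 in ErbB2V664E. The files give FPKM, so no count test was run.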
